A study of Homo sapiens with 6 samples.

Results

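The 9 genes described here belong to the NRF2 antioxidant pathway: NFE2L2, KEAP1, NQO1, HMOX1, GCLC, GCLM, TXNRD1, SRXN1 and SLC7A11. They were chosen by name from a table of 64253 genes, with rows on alternate sequences left out, and all 9 were among the 20992 genes that passed the filter on low counts. RNA sequencing was done on H69 cells, a human bile duct epithelial (cholangiocyte) line that has been immortalised, at passages 30 to 32. In the TGF-beta group, 3 libraries came from cells kept for 16 h with recombinant human TGF-beta, 10 ng/ml, and in the vehicle group 3 libraries came from cells given vehicle. All data come from 1 cell line, 1 dose and 1 time, and the labels do not say whether replicates are separate cultures, so each p-value reflects only how far these libraries scatter, and that scatter may be technical.

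NRF2, the protein made from NFE2L2, is a transcription factor that is held in the cytoplasm and marked for degradation by KEAP1, a cysteine-rich sensor that joins it to a CUL3 ubiquitin ligase. Oxidants and electrophiles disable KEAP1, NRF2 enters the nucleus, pairs with a small MAF protein and binds antioxidant response elements, which the repressor BACH1 can also occupy. Its targets make glutathione, reduce thioredoxin, detoxify quinones and break down haem. In bile duct cells, which meet bile acids and xenobiotics, the pathway is known as a defence against oxidative injury. Because NRF2 is governed mainly through its protein, NFE2L2 mRNA is not a measure of its activity.

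Counts per library summed to 37205862 to 47314515 in TGF-beta and to 39971568 to 54160521 in vehicle libraries, and the 9 genes had 374 to 14715 reads each per library. CPM below is reads scaled to library size by TMM, where 1 CPM stands for 35.7 to 56.2 reads of a library, and a gene is said to have risen or fallen where the quasi-likelihood test of edgeR, with p-values adjusted by Benjamini-Hochberg over all genes tested, gave an adjusted p under 0.05. All 9 of 9 genes of a TGF-beta response list rose (median log2 fold change 2.18). Of the cholangiocyte markers, KRT7 (log2 0.95) and KRT8 (0.51) rose, EPCAM (-0.48) and SOX9 (-1.76) fell, and KRT18 and KRT19, well expressed, did not pass the test, whereas the chloride channel gene CFTR, also a marker of these cells, had 0 reads in every library. Summed cholangiocyte markers measured 5560 to 6061 CPM in TGF-beta and 3807 to 4068 CPM in vehicle libraries. Summed fibroblast markers measured 400.1 to 438.9 CPM in TGF-beta and 195 to 214 CPM in vehicle libraries, and of the 5 of 7 that were tested, 3 rose, PDGFRA fell (-0.72) and DCN did not pass, while the defining genes LUM and COL3A1 were at or near 0; their part in the results below was not tested. Hepatocyte markers summed to 79.1 to 82.2 CPM in TGF-beta and 67.8 to 82.5 CPM in vehicle libraries. Most of this was SERPINA1, which averaged 72.8 CPM in TGF-beta and 60.7 CPM in vehicle libraries and rose (0.26). APOB (20.1 CPM in vehicle replicate 1) and TF did not pass the test, and ALB was at most 0.0771 CPM. Leukocyte and endothelial markers summed to 10.1 to 11.6 CPM in TGF-beta and 10.8 to 13.0 CPM in vehicle libraries. Most of this was CD68, at means of 9.65 CPM in TGF-beta and 9.95 CPM in vehicle libraries. CD68 and VWF did not pass, PECAM1 fell (-1.18), and PTPRC was at or near 0. Vehicle replicate 1 stood apart from the other vehicle libraries on the second principal component (36.6 against -14.9 and -18.7). Of the 10991 genes averaging 10 CPM or more, 3.11% were at least 1.5-fold away in vehicle replicate 1 from the mean of vehicle replicates 2 and 3, and NQO1 and HMOX1 were among these. Results are therefore also given without that library. In a bulk sample, fewer cells of a kind and less RNA per cell cannot be told apart.

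The pathway did not move as a block. HMOX1 and SLC7A11 rose, TXNRD1, NFE2L2, GCLC and GCLM fell, and KEAP1, SRXN1 and NQO1 did not pass the test. That is 2 of 9 higher, where 19.7% of all genes tested rose, and 4 of 9 lower, where 20.4% fell; either way 6 of 9 passed, against 40.1% of all genes tested. The median log2 fold change of the 9 genes was -0.20, and that of all genes tested was -0.01. Only HMOX1 changed at least 2-fold with an adjusted p under 0.05, as did 8.37% of all genes tested. CPM values of the TGF-beta and vehicle libraries did not overlap for 6 of the 9 genes, and did not for 52.3% of all genes tested. Without vehicle replicate 1, 2 genes rose and 5 fell, NQO1 being the added one, and then 24.9% of all genes tested rose and 25.5% fell (50.4% either way). Leaving out TGF-beta replicate 2 or 3, or vehicle replicate 2 or 3, left 2 falls, TXNRD1 and NFE2L2.

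**Figure D1:**
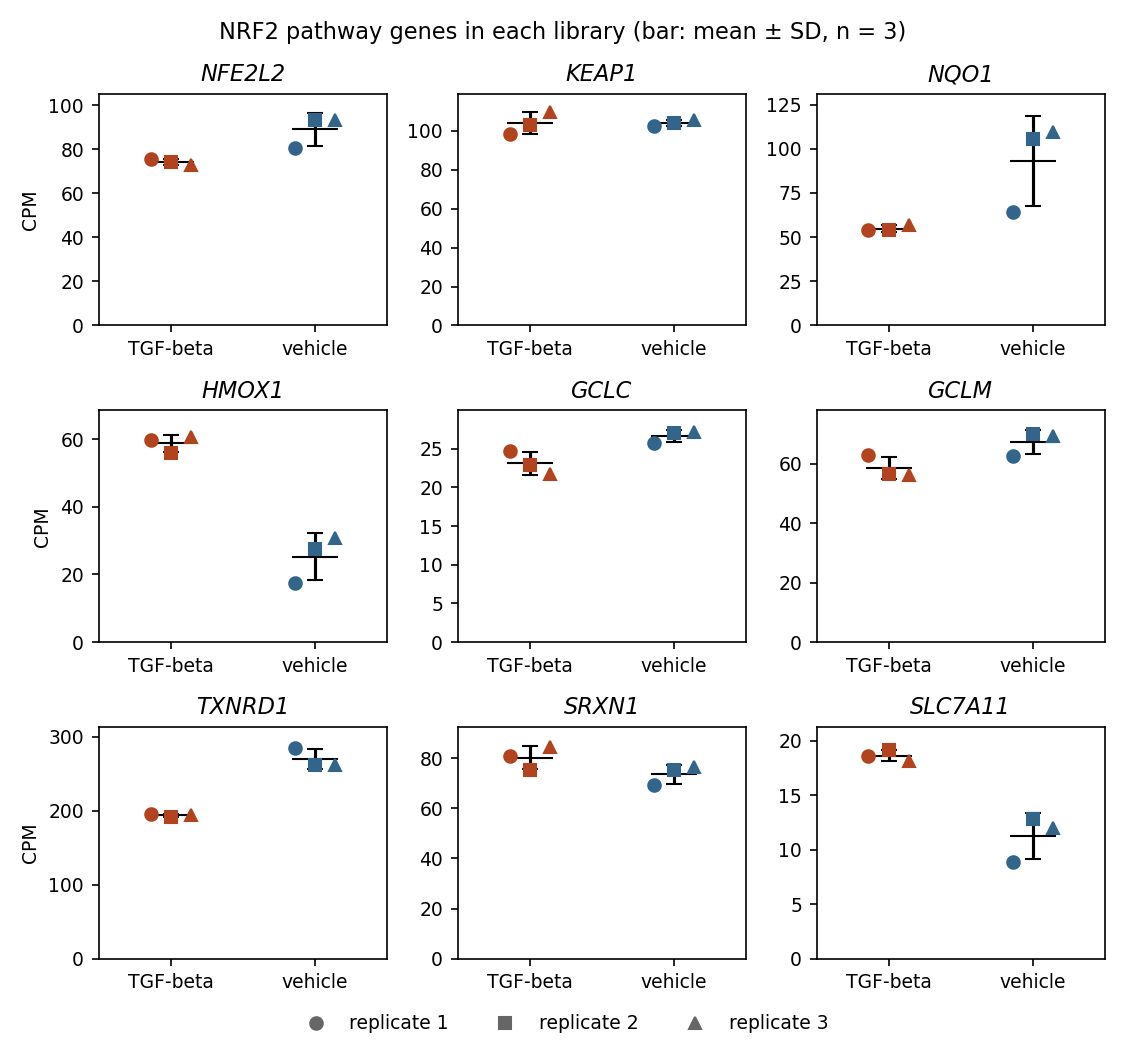
CPM (reads scaled to library size by TMM) of each gene in the 3 TGF-beta and 3 vehicle libraries; marker shapes are replicate numbers, horizontal bars are means and error bars SD. HMOX1 and SLC7A11 sit higher in all TGF-beta libraries, TXNRD1 lower, and vehicle replicate 1 is the lowest vehicle library for NQO1 (63.9 CPM) and HMOX1 (17.5 CPM).

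**Figure D2:**
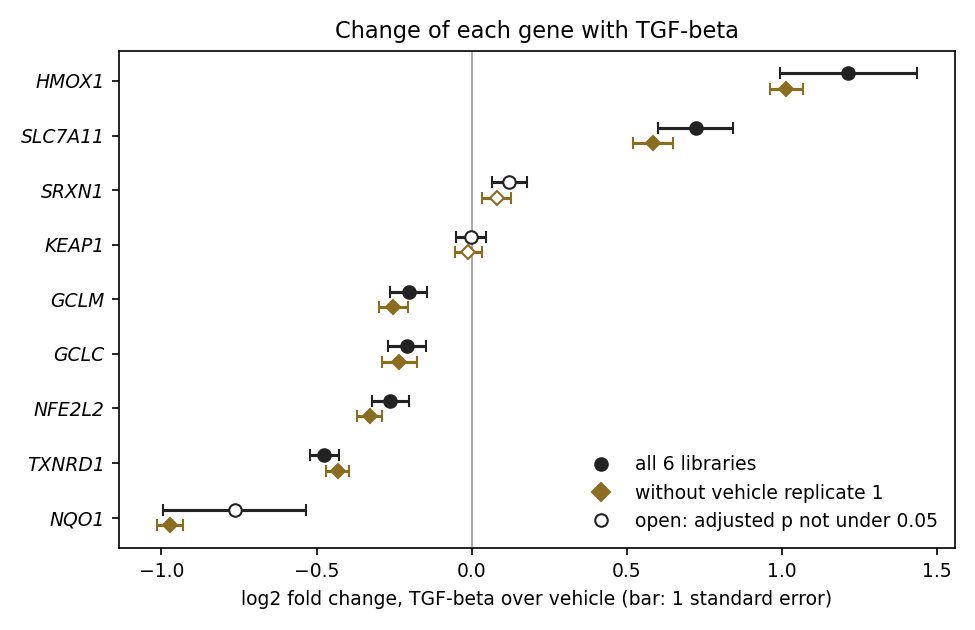
Log2 fold change of TGF-beta over vehicle for each gene, with 1 standard error, from the fit of all 6 libraries (circles) and without vehicle replicate 1 (diamonds); open symbols have an adjusted p not under 0.05. NQO1 is open at -0.76 with all libraries and filled at -0.97 without vehicle replicate 1.

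Promoter windows were at hand for 7 of the 9 genes in RefSeq (GRCh38.p14), with 10 windows in all, each covering 250 bases before and 50 after a transcription start. HMOX1 and SLC7A11 were not matched. The core of the antioxidant response element, TGACNNNGC with N for any base, was searched on both strands. It was found in 4 of the 10 windows, which belong to 3 genes (TXNRD1, GCLM and KEAP1). Of 35114 RefSeq promoter windows of the same length, 13.3% held it. The longer form TGACTCAGC, which is one case of that core and also holds the AP-1 element TGAGTCA on its other strand, was in none of the 10 windows and in 0.561% of all. The AP-1 element TGAGTCA was in none of the 10 either, and in 4.95% of all. The stretches from 150 bases before to 10 bases after the start are printed for the genes with a core and for NQO1, the textbook target, with the core in capitals:
TXNRD1, upstream start (chr12:104215629-104215788, plus strand): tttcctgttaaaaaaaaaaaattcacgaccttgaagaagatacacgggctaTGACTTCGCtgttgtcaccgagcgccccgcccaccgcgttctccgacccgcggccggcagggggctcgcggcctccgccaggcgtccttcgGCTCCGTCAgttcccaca
TXNRD1, downstream start (chr12:104286882-104287041, plus strand): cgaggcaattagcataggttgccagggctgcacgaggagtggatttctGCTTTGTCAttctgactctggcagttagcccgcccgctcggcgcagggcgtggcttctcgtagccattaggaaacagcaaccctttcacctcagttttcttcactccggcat
GCLM (chr1:93909421-93909580, minus strand): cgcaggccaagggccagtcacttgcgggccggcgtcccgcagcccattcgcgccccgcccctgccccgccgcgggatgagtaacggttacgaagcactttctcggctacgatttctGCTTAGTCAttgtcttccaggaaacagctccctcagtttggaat
KEAP1, downstream start (chr19:10502762-10502921, minus strand): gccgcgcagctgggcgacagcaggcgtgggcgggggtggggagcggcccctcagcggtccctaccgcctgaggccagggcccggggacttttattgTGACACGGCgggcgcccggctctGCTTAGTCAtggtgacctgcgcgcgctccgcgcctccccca
NQO1 (chr16:69726551-69726710, minus strand): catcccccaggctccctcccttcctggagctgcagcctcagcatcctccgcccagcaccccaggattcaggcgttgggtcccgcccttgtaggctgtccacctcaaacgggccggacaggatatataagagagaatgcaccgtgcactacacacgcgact
In the GCLM stretch the core reads TGACTAAGC on the opposite strand, at bases -34 to -26 from the start, and KEAP1 carries the same letters at bases -31 to -23, beside TGACACGGC at -54 to -46. The upstream start of TXNRD1 has TGACTTCGC at -99 to -91 and, on the opposite strand, TGACGGAGC at -8 to 1; its downstream start has TGACAAAGC on the opposite strand at -102 to -94. Of these 3 genes TXNRD1 and GCLM fell and KEAP1 did not pass the test. A match of letters is a description of the window, and the lack of one in NQO1, NFE2L2, GCLC and SRXN1 says only that these letters are not in these windows.

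Among the regulators, NFE2L2 fell slightly. NFE2L2 (ENSG00000116044, hg38 chromosome 2, 177227595 to 177392697) had 75.6, 74.0 and 72.9 CPM in TGF-beta libraries, against 80.5, 93.2 and 93.2 CPM in vehicle libraries. All TGF-beta libraries lay below all vehicle libraries, with vehicle replicate 1 nearest to them. The log2 fold change was -0.26 with a standard error (SE) of 0.06 (edgeR adjusted p = 0.00527), and it was -0.33 (SE 0.04) without vehicle replicate 1. One end of the gene's span overlaps AGPS, which averaged 129 CPM and had a log2 fold change of 0.43, and reads over the shared bases cannot be assigned to either.

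KEAP1 (ENSG00000079999, chromosome 19, 10486120 to 10503741) measured 98.6, 103 and 110 CPM in TGF-beta libraries, against 103, 104 and 106 CPM in vehicle libraries. The groups overlapped throughout. Its log2 fold change was -0.0026 (SE 0.05; edgeR adjusted p = 0.973), and it was called lower, at -0.13, where library totals alone set the scale, a setting that moved the median of all genes to -0.14. The ratio of KEAP1 to NFE2L2 within a library, taken from the authors' RPKM (reads per kilobase of gene length, scaled to library size) and so free of the scaling between libraries, was 2.05, 2.19 and 2.36 in TGF-beta libraries and 2.0, 1.75 and 1.78 in vehicle libraries. These values did not overlap, although vehicle replicate 1 came within 0.05 of TGF-beta replicate 1. By exact permutation (two-sided) p was 0.1, the smallest that 3 against 3 libraries allow, and p = 0.15 after adjustment over the 6 ratios computed.

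NQO1 and HMOX1, which share NRF2 as an activator, lay in opposite directions. NQO1 (ENSG00000181019, chromosome 16, 69706996 to 69726951) encodes the quinone reductase that converts quinones to hydroquinones. It measured 53.7, 53.9 and 56.9 CPM in TGF-beta libraries, against 63.9, 106 and 109 CPM in vehicle libraries. The TGF-beta libraries agreed closely and all were below the vehicle libraries, while vehicle replicate 1 held 59.4% of the mean of the other vehicle libraries. With that spread the log2 fold change of -0.76 (SE 0.23) had an edgeR adjusted p of 0.0579 and was not called. Without vehicle replicate 1 it was -0.97 (SE 0.04; edgeR adjusted p = 2.25e-17), a fit whose vehicle libraries lay close together. NQO1 overlaps an antisense gene, CTD-2033A16.1, that averaged 4.95 CPM and fell by 0.99 on the log2 scale; no source used here gives the strand setting of the counting, so reads of the pair may be mixed.

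HMOX1 (ENSG00000100292, chromosome 22, 35380361 to 35394214) encodes haem oxygenase 1, which opens haem to biliverdin, carbon monoxide and iron. It had 59.7, 55.9 and 60.7 CPM in TGF-beta libraries, against 17.5, 27.4 and 30.8 CPM in vehicle libraries. Every TGF-beta library was well above every vehicle library, and vehicle replicate 1 was again the low one, at 60.1% of the mean of the others. The rise was 2.32-fold, a log2 fold change of 1.21 (SE 0.22; edgeR adjusted p = 0.0111), and 1.01 (SE 0.05) without vehicle replicate 1. HMOX2, the constitutive haem oxygenase, averaged 28.8 ± 1.38 CPM in TGF-beta and 29.4 ± 0.577 CPM in vehicle libraries (SD, n = 3 each) and did not pass the test. The ratio of HMOX1 to HMOX2, per length, was 3.27, 3.22 and 3.17 in TGF-beta libraries and 0.917, 1.48 and 1.68 in vehicle libraries.

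HMOX1 and NQO1 were both low in vehicle replicate 1, and their ratio varied little within each group. Per length, it was 1.5, 1.40 and 1.44 in TGF-beta libraries, against 0.370, 0.351 and 0.381 in vehicle libraries. The groups are far apart and vehicle replicate 1 lies between the other vehicle libraries. The ratio was 3.95-fold higher with TGF-beta and 3.96-fold higher without vehicle replicate 1 (exact two-sided permutation p = 0.1, the smallest possible, and 0.15 adjusted over the 6 ratios). This ratio was chosen after the values were seen.

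**Figure D3:**
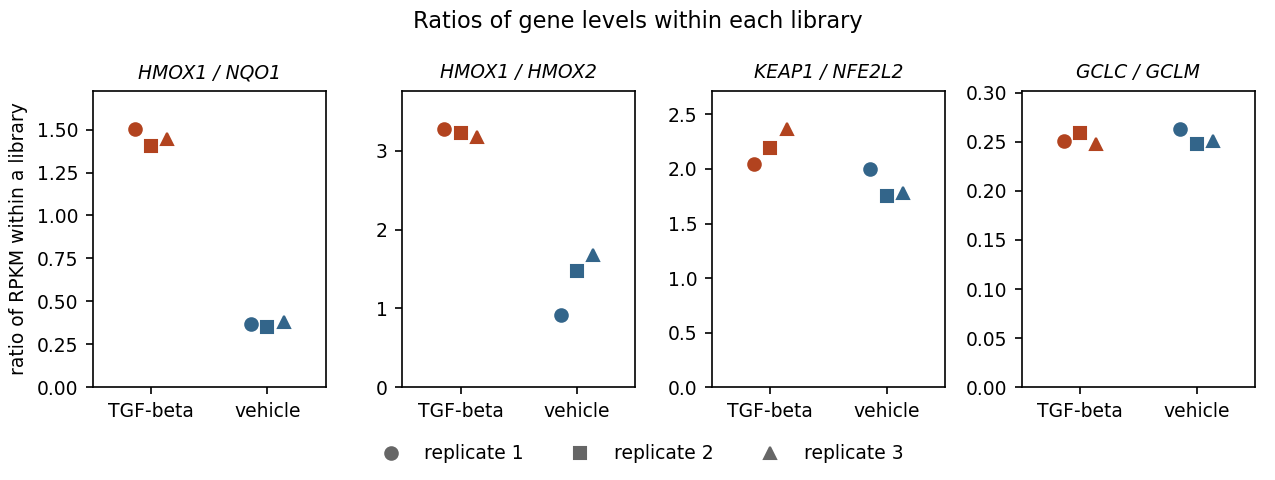
Ratios of authors' RPKM values within each library for 4 pairs of genes, TGF-beta libraries on the left and vehicle libraries on the right of each panel; marker shapes are replicate numbers. HMOX1 over NQO1 is 1.40 to 1.5 in TGF-beta and 0.351 to 0.381 in vehicle libraries, whereas GCLC over GCLM overlaps between the groups (0.248 to 0.259 in TGF-beta, 0.247 to 0.263 in vehicle libraries).

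Of the glutathione genes, the cystine importer rose and both subunits of the synthesis enzyme fell a little. SLC7A11 (ENSG00000151012, chromosome 4, 138164097 to 138242349) encodes the light chain of the cystine and glutamate exchanger, which brings in the cystine that glutathione is made from. It had 18.7, 19.2 and 18.1 CPM in TGF-beta libraries, against 8.92, 12.9 and 12.0 CPM in vehicle libraries. No library of either group reached the range of the other, and vehicle replicate 1 was lowest. The rise was 1.65-fold (log2 0.72, SE 0.12; edgeR adjusted p = 0.00151), and 0.58 (SE 0.06) without vehicle replicate 1. SLC3A2, the heavy chain that carries SLC7A11 to the membrane, rose as well, with 278 ± 9.49 CPM in TGF-beta and 153 ± 15.8 CPM in vehicle libraries (log2 0.87, SE 0.07; edgeR adjusted p = 7.48e-06). The ratio of the light to the heavy chain, per length, was 0.0361 ± 0.00214 in TGF-beta and 0.0404 ± 0.0107 in vehicle libraries (SD, n = 3 each; exact two-sided permutation p = 0.6). Vehicle replicate 1 had the lowest ratio of all, 0.0281, and the other vehicle libraries, at 0.0475 and 0.0457, lay above all TGF-beta libraries; the log2 difference was -0.13 with all libraries and -0.37 without vehicle replicate 1.

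GCLC and GCLM encode the catalytic and modifier subunits of glutamate-cysteine ligase, the rate-limiting enzyme of glutathione synthesis. GCLC (ENSG00000001084, chromosome 6, 53497341 to 53616970) had 24.7, 22.9 and 21.8 CPM in TGF-beta libraries, against 25.8, 27.1 and 27.2 CPM in vehicle libraries, with no overlap but little room between TGF-beta replicate 1 and vehicle replicate 1. GCLM (ENSG00000023909, chromosome 1, 93885205 to 93909456) had 62.9, 56.6 and 56.2 CPM in TGF-beta libraries, against 62.8, 70.1 and 69.3 CPM in vehicle libraries. For GCLM the replicates numbered 1 met, and the groups overlapped. The log2 fold changes were -0.21 (SE 0.06; edgeR adjusted p = 0.0197) for GCLC and -0.20 (SE 0.06; edgeR adjusted p = 0.0215) for GCLM. Neither call held without TGF-beta replicate 2 or 3 or vehicle replicate 2 or 3, where the edgeR adjusted p was 0.0641 to 0.0868 for GCLC and 0.0697 to 0.107 for GCLM. With the replicate number as a block, GCLM had an edgeR adjusted p of 0.0583. The ratio of GCLC to GCLM, per length, overlapped between groups, at 0.251, 0.259 and 0.248 in TGF-beta libraries and 0.263, 0.247 and 0.251 in vehicle libraries (exact two-sided permutation p = 0.8).

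Of the genes that act on thioredoxin and peroxiredoxins, TXNRD1 fell and SRXN1 did not pass the test. TXNRD1 (ENSG00000198431, chromosome 12, 104215779 to 104350305), the cytosolic selenoprotein that reduces thioredoxin with NADPH, had the most reads of the 9 genes. It measured 196, 191 and 194 CPM in TGF-beta libraries, against 285, 262 and 261 CPM in vehicle libraries. The groups were wide apart, and here vehicle replicate 1 was the highest vehicle library. TXNRD1 fell by 0.47 on the log2 scale (SE 0.05; edgeR adjusted p = 1.93e-05, the smallest of the 9), and by 0.43 without vehicle replicate 1. TXN, the gene of its substrate, fell by 0.12 on the log2 scale (edgeR adjusted p = 0.0382). It was not called without TGF-beta replicate 2 or vehicle replicate 3, or with DESeq2. The TXNRD1 to TXN ratio, per length, was 0.143 ± 0.00513 in TGF-beta and 0.182 ± 0.00844 in vehicle libraries (SD, n = 3 each). By exact two-sided permutation p was 0.1, the smallest possible. A processed pseudogene inside TXNRD1, RPL18AP3, averaged 57.8 CPM and did not pass the test.

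SRXN1 (ENSG00000271303, chromosome 20, 646615 to 653370) encodes sulfiredoxin, which restores overoxidised peroxiredoxins. It had 80.9, 75.2 and 84.3 CPM in TGF-beta libraries, against 69.3, 75.2 and 76.4 CPM in vehicle libraries. The groups overlapped, and the log2 fold change of 0.12 (SE 0.06; edgeR adjusted p = 0.112) did not pass the test; scaled by library totals alone it was -0.0049. The table also holds ENSG00000270299 (chromosome 20, 646626 to 675800), a protein-coding locus that spans SRXN1, and its counts were 0.654% to 1.19% below those of SRXN1 in every library. Nearly every read of SRXN1 thus has a match in the count of that locus, the reads of the pair cannot be told apart in this table, and nearly the whole value of SRXN1 cannot be assigned to it alone.

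Levels between genes are compared on the RPKM scale. The place of SRXN1 is uncertain, as nearly its whole value cannot be told apart from that of ENSG00000270299. With TGF-beta, SRXN1 (12.3 ± 0.660 RPKM), TXNRD1 (11.9 ± 0.143) and KEAP1 (11.4 ± 0.570) led and did not differ beyond their spread. HMOX1 followed at 10.1 ± 0.398 RPKM, ahead of NQO1 at 6.96 ± 0.189, NFE2L2 at 5.19 ± 0.112, GCLM at 4.46 ± 0.297, GCLC at 1.13 ± 0.0751 and SLC7A11 at 0.800 ± 0.0259 RPKM (SD, n = 3). In vehicle, TXNRD1 stood first at 17.6 ± 0.914 RPKM, and NQO1 (12.5 ± 3.40), KEAP1 (12.1 ± 0.197) and SRXN1 (12.0 ± 0.611) came next without differing beyond their spread. NFE2L2 (6.61 ± 0.537), GCLM (5.45 ± 0.318) and HMOX1 (4.60 ± 1.26) formed the middle, where GCLM and HMOX1 lay within their spread, and GCLC (1.38 ± 0.0403) and SLC7A11 (0.513 ± 0.0938 RPKM) were lowest. HMOX1 was thus below NQO1 in each vehicle library and above it in each TGF-beta library. By mean RPKM over the 6 libraries, TXNRD1 was above 92.8% of the genes tested and SLC7A11 above 33.4%.

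For each gene, the protein-coding gene most like it over the 6 libraries was sought among those averaging 10 CPM or more, by Pearson correlation of log2 CPM. The libraries fall into the 2 conditions, so a high value mostly says that the conditions and vehicle replicate 1 are placed alike, and with 10242 candidates high values arise readily. NQO1 was most like DAP, NFE2L2 like SLC37A3, HMOX1 like ARPC2, SLC7A11 like RUNX1, TXNRD1 like ENDOD1, GCLC like RALGPS2, GCLM like ENDOV and KEAP1 like TECR. SRXN1 was most like ENSG00000270299, the locus that shares its reads. Likeness ignores size: DAP changed by -0.38 on the log2 scale beside NQO1 at -0.76, and ENDOD1 by -1.94 beside TXNRD1 at -0.47.

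Further genes of the pathway were taken from 9 lists with 124 genes, of which 115 were tested. Of these, 22 rose and 37 fell, where 19.7% of all genes tested rose and 20.4% fell, so the share that rose is near that of all genes. Their median log2 fold change was -0.10. The higher count fell to 13 without TGF-beta replicate 2, and the counts were 27 and 50 without vehicle replicate 1. Scaled by library totals alone, 11 rose and 59 fell, and limma on log2 RPKM gave 10 or 11 rises. Several genes below overlap another gene that moved the same way, so reads may be shared. They include MAFK with TMEM184A (log2 0.65), NOXA1 with ENTPD8 (-2.46), GSTM4 with GSTM2 (-0.34) and SLC48A1 with RAPGEF3 (-0.73). PRDX2 overlaps HOOK2 (1.16) and an antisense gene (0.16, at a mean of 39.4 CPM) that covers nearly its whole span. ALDH3A1 and IDH1 each overlap an antisense gene, at -3.40 and -0.89.

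Partners and regulators of NRF2 rose in 2 of 14 genes and fell in 4, near the shares of 19.7% and 20.4% among all genes tested. MAFK, a small MAF partner of NRF2, rose to 111 ± 7.71 CPM in TGF-beta libraries, against 50.9 ± 9.92 CPM in vehicle libraries (log2 1.12, SE 0.16; edgeR adjusted p = 0.00318), while MAFG (-0.03) and MAFF (-0.23) did not pass. BACH1, the repressor of HMOX1, rose by 0.22 on the log2 scale, but was not called without TGF-beta replicate 2, with library totals alone (0.09) or in any of the 3 limma settings (0.09 to 0.13). NFE2, the founding member of the family, fell, with 0.391 ± 0.0904 CPM in TGF-beta and 2.24 ± 0.541 CPM in vehicle libraries (log2 -2.52), and NFE2L3 fell by 0.67, a call lost without TGF-beta replicate 3 or vehicle replicate 3. SQSTM1, the autophagy receptor that binds KEAP1, fell by 0.44, and BTRC, another route of NRF2 degradation, by 0.19. CUL3 (0.03) and RBX1 (-0.01), the ligase that KEAP1 works with, did not pass. The lower count was 2 without TGF-beta replicate 3 or vehicle replicate 3 and 7 without vehicle replicate 1, and the higher count was 1 without TGF-beta replicate 2, with library totals alone and in the 3 limma settings.

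Detoxification and export genes fell in 11 of 20 tested and rose in 3, where 20.4% of all genes tested fell and 19.7% rose. Their median log2 fold change was -0.29, the lowest of the 9 lists. ALDH3A1, an aldehyde dehydrogenase, had 1.45 ± 0.221 CPM in TGF-beta and 9.20 ± 3.24 CPM in vehicle libraries (log2 -2.68, SE 0.34; edgeR adjusted p = 0.00183), and vehicle replicate 1 was low for it at 5.51 CPM. AKR1B10, an aldo-keto reductase used as an NRF2 target, fell by 1.66 at 0.637 ± 0.141 CPM in TGF-beta and 2.01 ± 0.147 CPM in vehicle libraries. AKR1C1 (-0.73), the carbonyl reductase CBR3 (-0.78), PIR (-0.65), PTGR1 (-0.37), the export pump ABCC4 (-0.67) and NQO2 (-0.62) fell. OSGIN1 was also called lower, close to the threshold (log2 -1.30, SE 0.399; edgeR adjusted p = 0.0478). It averaged 1.62 ± 0.103 CPM in TGF-beta libraries, and vehicle replicate 1, at 1.88 CPM, lay near them. The other vehicle libraries had 5.16 and 4.73 CPM. UGDH, which makes UDP-glucuronic acid, rose by 0.49, and the export pump ABCC3 by 0.38; the ABCC3 call was lost when any one TGF-beta replicate was left out, with library totals alone (0.25) and in the 3 limma settings (0.27 to 0.30). Beside AKR1C1, AKR1C2 (-0.13) and AKR1C3 (-0.09) did not pass the test, and their groups overlapped. The AKR1C genes are close copies, so the split of their reads is uncertain. Leaving out any one TGF-beta replicate, library totals alone and the 3 limma settings each gave 1 rise in the list.

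**Figure D4:**
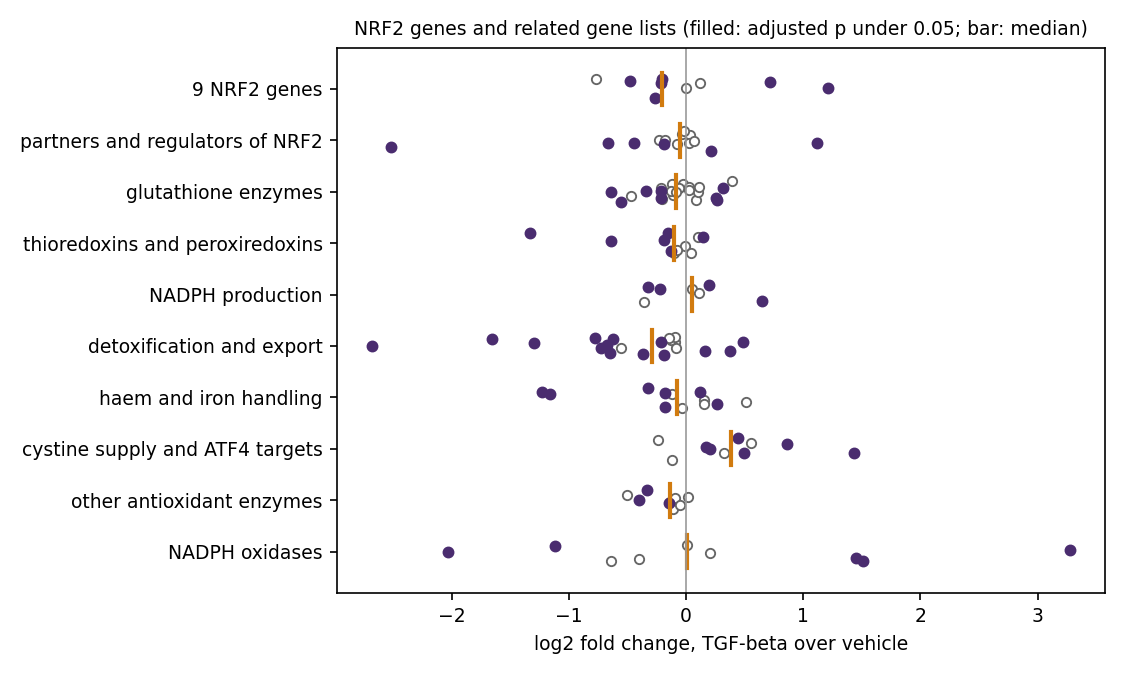
Log2 fold change of TGF-beta over vehicle for the 9 NRF2 genes and the tested genes of 9 related lists; each point is a gene, filled where the adjusted p was under 0.05, and orange bars are medians. The medians run from -0.29 for detoxification and export to 0.38 for cystine supply and ATF4 targets; vertical scatter within a row has no meaning.

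Cystine supply and ATF4 targets, a stress programme that also covers SLC7A11, rose in 6 of 10 genes and fell in 0, with a median log2 fold change of 0.38. Among all genes tested 19.7% rose and 20.4% fell. CHAC1, which degrades glutathione, rose to 19.4 ± 1.81 CPM in TGF-beta libraries, against 7.17 ± 0.795 CPM in vehicle libraries (log2 1.43, SE 0.10; edgeR adjusted p = 1.37e-06). SLC3A2 (0.87), TRIB3 (0.50), ATF4 itself (0.44), SESN2 (0.21) and ASNS (0.17) rose. DDIT3 (-0.24) and CBS (-0.12) did not pass, and 1 gene of the list fell without vehicle replicate 1, with library totals alone and with limma with its filter. The list was chosen with knowledge of earlier results.

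Glutathione enzymes rose in 3 of 23 tested and fell in 5, counts close to or below the shares of 19.7% and 20.4% among all genes tested. GLRX, glutaredoxin, fell to 13.3 ± 0.221 CPM in TGF-beta libraries, against 20.7 ± 1.49 CPM in vehicle libraries (log2 -0.64), and GSTM4 fell by 0.55; GSS, the second enzyme of glutathione synthesis, fell by 0.21. MGST2 rose by 0.32 (0.15 and not called with limma on log2(RPKM + 1) without a filter). GLRX2 was called higher (0.26) with overlapping groups, and lost the call without any one library other than vehicle replicate 1, with DESeq2, with library totals alone (0.14) and in the 3 limma settings (0.14 to 0.18). Glutathione reductase GSR (-0.12) and the phospholipid peroxidase GPX4 (-0.02) did not pass. The higher count was 1 without TGF-beta replicate 1 or 2 or vehicle replicate 2 or 3, and the lower count 3 without TGF-beta replicate 2. Library totals alone gave 1 higher and 11 lower, DESeq2 gave 1 higher, limma with the filter gave 1 higher and 8 lower, and limma without it gave 0 higher.

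Thioredoxins and peroxiredoxins rose in 1 of 11 genes and fell in 5, where 19.7% of all genes tested rose and 20.4% fell. TXNIP, which binds and inhibits thioredoxin, fell to 50.2 ± 2.38 CPM in TGF-beta libraries, against 126 ± 18.6 CPM in vehicle libraries (log2 -1.33, SE 0.11; edgeR adjusted p = 0.000113). TXNRD3 fell by 0.64, TXNRD2 by 0.19 and TXN by 0.12. PRDX2, the 1 rise, measured 0.15 and was not called without TGF-beta replicate 2 or 3 or vehicle replicate 2, with library totals alone (0.02) or in the 3 limma settings (0.06). The lower count was 2 without TGF-beta replicate 2 or vehicle replicate 3 and with DESeq2. There only TXNIP and TXNRD3 kept their calls, and TXN and TXNRD2 lost theirs. The count was 3 without vehicle replicate 2 and 8 with library totals alone.

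NADPH production rose in 2 of 7 genes and fell in 2, beside shares of 19.7% and 20.4% among all genes tested. Malic enzyme ME1 rose to 121 ± 4.44 CPM in TGF-beta libraries, against 77.2 ± 3.84 CPM in vehicle libraries (log2 0.65, SE 0.05; edgeR adjusted p = 3.87e-06), and TALDO1 rose by 0.20 (not called with library totals alone, at 0.07, or with limma without a filter, at 0.11). IDH1 fell by 0.32 and PGD by 0.22, both cytosolic NADPH producers.

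Haem and iron genes rose in 2 of 12 and fell in 5, where 19.7% of all genes tested rose and 20.4% fell. SLC40A1, the iron exporter ferroportin, fell to 5.74 ± 0.418 CPM in TGF-beta libraries, against 13.5 ± 1.73 CPM in vehicle libraries (log2 -1.23, SE 0.10), and SLC48A1, a haem transporter, to 13.1 ± 0.907 CPM, against 29.4 ± 4.38 CPM in vehicle libraries (log2 -1.16, SE 0.11). The ferritin heavy chain FTH1 fell by 0.18 and ferrochelatase FECH by 0.33, while the haem exporter FLVCR1 rose by 0.27, a call lost with library totals alone (0.14) and with limma without a filter (0.12). SLC11A2 was called at 0.12, but its direction turned (-0.0035) with library totals alone, and its call was lost without any one library other than vehicle replicate 1, with DESeq2, with no filter on low counts and in the 3 limma settings (0.02 to 0.03). TFRC did not pass the test (log2 0.52, SE 0.37). It had 326, 312 and 305 CPM in TGF-beta libraries, against 344, 160 and 156 CPM in vehicle libraries, so vehicle replicate 1 was its highest library. The higher count was 1 without any one library other than vehicle replicates 1 and 3, and 4 without vehicle replicate 1. That count was 0 with library totals alone and with limma without a filter. DESeq2, no filter on low counts and limma with its filter each gave 1.

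Other antioxidant enzymes fell in 3 of 9 tested and rose in 0, beside shares of 20.4% and 19.7% among all genes tested. Catalase CAT fell to 29.3 ± 0.900 CPM in TGF-beta libraries, against 38.7 ± 1.52 CPM in vehicle libraries (log2 -0.40). SOD2 fell by 0.15 (edgeR adjusted p = 0.0439), but was not called without TGF-beta replicate 2 or vehicle replicate 3. MSRA fell by 0.33, a call lost without TGF-beta replicate 1 or 2 or vehicle replicate 2 or 3. The lower count was 1 without TGF-beta replicate 2 or vehicle replicate 3, 6 without vehicle replicate 1, 7 with library totals alone and 5 with limma with its filter.

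NADPH oxidases, which make superoxide or hydrogen peroxide, were scarce. NOX4, an oxidase known as a TGF-beta target in fibroblasts, had 0, 0 and 2 reads in TGF-beta libraries and 0 reads in each vehicle library, where 0 reads allow up to 0.0200 CPM over the vehicle group. Of 9 genes tested, 3 rose and 2 fell, where 19.7% of all genes tested rose and 20.4% fell. NOXA1, an activator subunit, fell by 2.03 on the log2 scale, at 0.666 ± 0.249 CPM in TGF-beta and 2.76 ± 0.0936 CPM in vehicle libraries. The rises of NOX5 and NCF1 and the fall of DUOX2 are at means below 1 CPM, and NCF1 has near-identical pseudogenes. The lower count was 1 without TGF-beta replicate 2 or vehicle replicate 3, with DESeq2 and with limma without a filter, 4 without vehicle replicate 1 and with library totals alone, and 0 with limma with its filter. With that filter of limma the higher count was 1, and genes of at least 1 CPM in 3 samples gave 1 higher and 1 lower.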

How the data were processed

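Counts of 6 H69 libraries (3 TGF-beta, 3 vehicle, grouped by the labels) were analysed from 1 deposited table. Per the submitters' processing notes, bcl2fastq, STAR 2.6.1 and featureCounts of Subread were used with build hg38; annotation release, strand setting and treatment of overlapping genes are not given in the sources used here. The count columns are whole, unscaled reads per gene, per the file headers. Beside them the authors deposited RPKM values, named so in the header and scaled to a library total of which the table's counts make up 43.2 ± 0.0622% in TGF-beta and 42.0 ± 0.126% in vehicle libraries (SD, n = 3). 

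All genes were fitted in R 4.3.3 with edgeR 4.0.16: filterByExpr (minimum count of 10), TMM, and a robust quasi-likelihood test between the conditions without a block, with Benjamini-Hochberg adjustment over 20992 genes. SE was taken as the absolute log2 fold change over the root of the F statistic. After scaling, 1 CPM is 35.7 to 56.2 reads. Library pairs differed by more than sampling noise (lowest chi-square over its degrees of freedom 2.48 within a condition). The steps were tested on simulated data. Members and lists were chosen with earlier results of these data known. Named list genes are the 2 largest called rises and 2 largest called falls with a mean of at least 1 CPM, apart from items not reported here; further examples were picked with their values in view. Of 2 rows named CBS, ENSG00000160200 was used; they are near-identical copies. Alternatives were RLE, library totals, other filters, DESeq2 1.42.0, limma 3.58.1 on log2(RPKM + 1) and log2(RPKM + 0.1) computed from the deposited RPKM (mean of at least 0.5, or none), a replicate block, and each library left out.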

Additional observations from a re-analysis of the deposited data

How the results depend on the processing

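The calls of HMOX1, SLC7A11, TXNRD1 and NFE2L2 and their directions held under all 15 alternatives; on log2(RPKM + 1), whose pseudocount damps low genes, SLC7A11 measured 0.25. NQO1 was lower under all 15 and called under 6: DESeq2 (-0.75), a filter of 1 CPM in 3 samples (-0.77), library totals alone (-0.89), limma on log2(RPKM + 0.1) (-0.80) and log2(RPKM + 1) (-0.73), and without vehicle replicate 1. Leaving out 1 library gave NQO1 -0.97 to -0.63, GCLC -0.26 to -0.17, GCLM -0.26 to -0.17, KEAP1 -0.0422 to 0.0356, and 2 to 5 falls among the 9 genes. KEAP1 turned to 0.0084 with DESeq2 and 0.0060 with RLE, to 0.0356, 0.0036 and 0.0087 without TGF-beta replicate 1, TGF-beta replicate 2 or vehicle replicate 3, and was called at -0.13 with library totals alone, where SRXN1 turned to -0.0049 and SLC11A2 to -0.0035; the cause was not tested beyond the shift of the median. Over all genes, library totals alone gave 2698 higher and 7282 lower, and limma gave 2402 higher on log2(RPKM + 0.1), 2406 on log2(RPKM + 1) and 2367 without a filter. For the 115 related genes, library totals gave 11 higher and 59 lower, limma gave 11, 11 and 10 higher in the same order, and leaving out 1 library gave 13 to 27 higher. Whether the replicate numbers pair the samples is not known. Correlations of same-numbered deviations were 0.0652, 0.0623 and 0.0129, too small to settle it either way. TGF-beta replicate 3 had 0.0136 with vehicle replicate 2, about the same as with its own number. With the replicate block, 3 of the 9 genes fell, GCLM having -0.20 and an edgeR adjusted p of 0.0583, and 4247 genes were higher and 4330 lower over all. In the antioxidant element search, the longer motif left 0 of 3 genes. Depth does not limit the 9 genes, at 374 or more reads each per library; below about 1 CPM, values rest on few reads.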
